A study of Homo sapiens with 6 samples.

Results

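The 40 genes described here encode subunits of respiratory complexes II, III, IV and V that are made from nuclear DNA, with cytochrome c. Further nuclear subunits, such as ATP5MJ and ATP5MK of complex V, are not among them. The 40 were chosen by name, 4 for complex II, 9 for complex III, cytochrome c itself, 11 for complex IV and 15 for complex V. The rule that names them uses no measured value, but earlier results of these data were known when they were chosen. All 40 were found, each as 1 Ensembl gene, among the 60609 genes of the deposited tables. OCI-AML5, a human cell line long kept in culture, comes from an acute myeloid leukemia and was grown here with the cytokine GM-CSF. RNA was sequenced from 3 libraries of cells given DMSO, the solvent, and 3 of cells given 1 μM S767, a small molecule that the study examined for activity against this leukemia, both for 24 hours, to ask which transcripts respond to the compound. Both groups are the same line in the same medium and differ, by the labels, in the treatment only.

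Complex II (succinate dehydrogenase) takes electrons from succinate through a flavin, iron-sulfur clusters and a heme to ubiquinone. Complex III passes them through a Rieske iron-sulfur protein and hemes to cytochrome c, complex IV (cytochrome c oxidase) uses hemes and copper centers to hand them to oxygen, and complex V makes ATP from the proton gradient that complexes III and IV help to build. Complex II is wholly encoded in the nucleus, whereas complexes III, IV and V also contain subunits encoded in mitochondrial DNA. Leukemic myeloid cells are known to rely on this system for much of their ATP.

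Transcripts of the 40 subunits were abundant in both groups, and none differed between S767 and DMSO past an adjusted p of 0.05 by the quasi-likelihood test of edgeR. Their log2 fold changes lay between -0.10 (UQCR11) and 0.08 (COX7A2), with a median of 0.010. At an unadjusted p under 0.05 the count was also 0 of 40, and DESeq2 and limma-voom gave 0 at both limits. Of all 20725 genes tested, 0.00483% passed the adjusted limit and 3.53% the unadjusted one. For its up-regulated genes the study used a P value under 0.05 and a log fold change above 0.4. Here an unadjusted p under 0.05 with a log2 fold change beyond 0.4 in size, not split by direction, was met by 1.23% of all genes and by 0 members.

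The libraries held between 149994700 and 258029564 fragments assigned to genes, and no member had fewer than 1271 in any library, and the counting error, as a root mean square over the libraries of a group, was at most 2.49% of a member's level. Only in ATP5PO was the spread between libraries of a group (0.730% in DMSO and 1.08% in S767) below its counting error (1.65% and 1.61%). Libraries with the same replicate number deviated together, so a second fit that takes the replicate number as a blocking factor is given beside the fit without it. The study's methods state that cells were treated in triplicate, and neither they nor the labels say more on how the replicates were kept apart. If they shared a culture, the p-values measure the spread between these libraries, which may be technical. Of 8 myeloid markers 7 were above 1 TPM (a level scaled by transcript length and to the same total in each library) in every library, among them CD33 at 88.6 to 106 TPM and SPI1 at 214 to 258.5 TPM. ANPEP was at 0.02 to 0.09 TPM. No marker of the 7 chosen for epithelium, endothelium, fibroblasts, T cells, B cells and erythroid cells exceeded 0.35 TPM.

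Promoters of respiratory genes are known for binding letters of NRF1, of ETS factors such as GABP, and of YY1, which drive many of them together. RefSeq windows of 300 bases (250 before the start site and 50 after, GRCh38.p14) were matched by symbol for 31 of the 40 members, taking the window listed ahead of any other for that symbol. No window was given for SDHC, UQCRB, CYC1, COX6C, NDUFA4, ATP5F1B, ATP5F1D, ATP5MC3 and ATP5MF. The NRF1 letters GCGCATGCG, sought on both strands, were in 6 of the 31 windows (SDHD, COX6A1, ATP5F1C, ATP5PF, ATP5MC2 and ATP5ME), or 19.4%, against 2.10% of all 27305 windows. The ETS letters CCGGAAG were in 14 of 31, or 45.2%, against 10.7% of all windows. Those of YY1, AAGATGGCG, were in 3 of 31 (SDHB, UQCRC1 and ATP5PF), or 9.68%, against 1.85% of all windows. Of these 3, only ATP5PF held the YY1 letters wholly before the start site. The letters of the 3 motifs do not overlap each other within the stretches shown here. The stretches come from the promoter in each complex with the most kinds of these letters before the start site, and in complex III, where UQCR11, UQCRQ and UQCRH each held ETS letters alone, from that with the lowest p. They run from 10 bases before the earliest match to the base before the start site, with the matched letters in capitals. They are SDHD, a membrane anchor of complex II, at chr11:112086753-112086872 on the plus strand. For complex III it is UQCR11, a small supernumerary subunit, at chr19:1605463-1605589 on the minus strand. COX6A1, a subunit of complex IV, lies at chr12:120437884-120438112 on the plus strand, and ATP5PF, factor F6 of the complex V stalk, at chr21:25735055-25735184 on the minus strand.
SDHD: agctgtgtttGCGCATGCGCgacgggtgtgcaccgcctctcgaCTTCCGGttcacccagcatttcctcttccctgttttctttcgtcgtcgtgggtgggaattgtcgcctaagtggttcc
UQCR11: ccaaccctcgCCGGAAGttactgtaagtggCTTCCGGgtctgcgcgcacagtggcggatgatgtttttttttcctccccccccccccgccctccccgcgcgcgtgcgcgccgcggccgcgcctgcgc
COX6A1: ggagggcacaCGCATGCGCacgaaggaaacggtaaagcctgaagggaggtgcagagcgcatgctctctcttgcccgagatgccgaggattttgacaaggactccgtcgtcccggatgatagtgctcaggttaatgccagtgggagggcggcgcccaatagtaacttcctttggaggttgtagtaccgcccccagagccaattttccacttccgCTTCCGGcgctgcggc
ATP5PF: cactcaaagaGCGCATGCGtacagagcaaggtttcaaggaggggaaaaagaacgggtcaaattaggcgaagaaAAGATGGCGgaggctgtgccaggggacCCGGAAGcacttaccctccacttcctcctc
In SDHD the NRF1 letters read on both strands as a run from 110 to 101 bases before the start, followed by ETS letters at 77 to 71. ATP5PF held NRF1, YY1 and ETS letters in that order, with NRF1 at 120 to 112, YY1 at 57 to 49 and ETS at 30 to 24 bases before the start. These matches describe the sequences and were not tested for binding. The start sites are those of RefSeq, and the outermost gene starts in GENCODE 29 lie farther upstream. Those of SDHD (112086773), UQCR11 (1605490) and COX6A1 (120438090) fall inside the stretches shown. The whole ATP5PF stretch lies inside ATP5PF, which starts at 25735673 there, and inside GABPA on the plus strand, which starts at 25734570. Transcripts of the 6 members with the NRF1 letters had blocked log2 fold changes of 0.026 to 0.050, the 14 with ETS letters -0.098 to 0.054, and the 3 with YY1 letters 0.042 to 0.069. With RSEM counts, which divide shared fragments, and the block these ranges were 0.00056 to 0.048, -0.024 to 0.051 and 0.00056 to 0.073. None of these transcripts passed the adjusted limit in either fit.

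Levels of the members ran over a wide range. Mean TPM in DMSO went from 39.4 ± 1.07 (SD, n = 3) for ATP5F1E, the epsilon subunit of the F1 head, to 1003 ± 15.2 for ATP5F1B, its catalytic beta subunit, with a median of 346.5 over the 40. ATP5MF, the f subunit of the Fo part, followed at 993 ± 51.1 TPM and overlapped ATP5F1B in the DMSO libraries. COX4I1, a core-binding subunit of complex IV, came next at 829 ± 3.05 TPM, below both in every library of that group. At the low end stood UQCRFS1, the Rieske iron-sulfur protein, at 59.5 ± 0.731 TPM and NDUFA4, a complex IV subunit once assigned to complex I, at 81.7 ± 4.70 TPM, and the DMSO libraries of these lowest members did not overlap each other. In the whole order, 23 of the 39 neighbouring pairs overlapped in DMSO. TPM divides by transcript length, and the mean length given by RSEM was 3349 bases for ATP5F1E, 3086 for UQCRFS1 and 1921 for NDUFA4, against a median of 811 over the members.

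**Figure D1:**
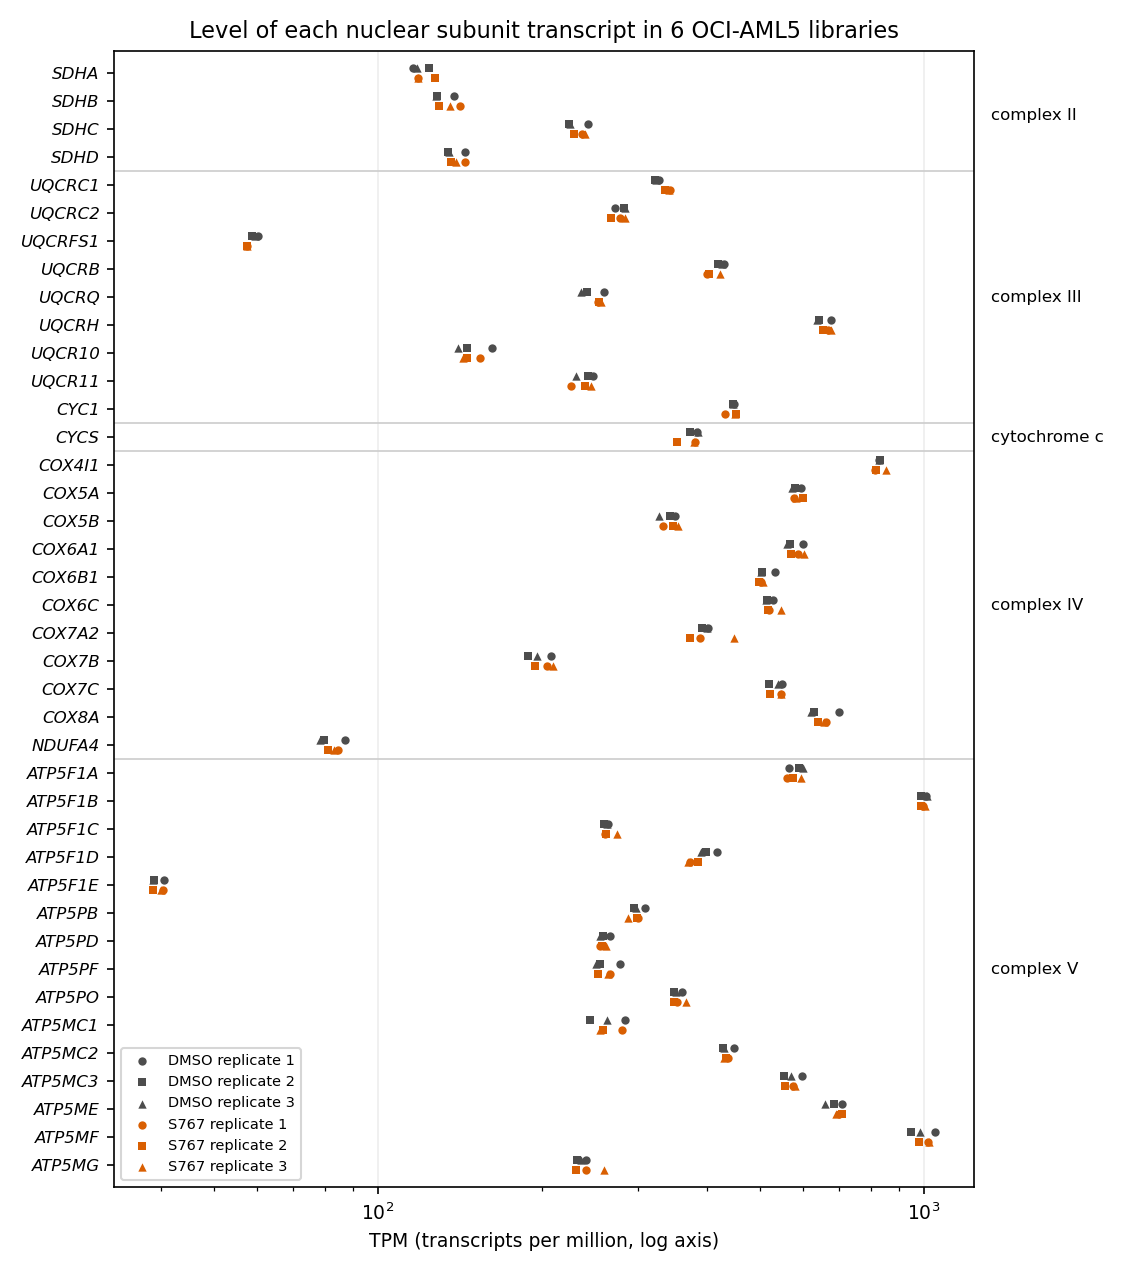
Level of each of the 40 transcripts in TPM on a log axis, with 1 point per library, DMSO in grey above and S767 in orange below, and marker shape for the replicate number. ATP5F1B and ATP5MF sit near 1003 and 993 TPM, ATP5F1E sits near 39.4 TPM, and the libraries of the 2 treatments lie close together for every member.

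Summed TPM of the members of each complex grew with their number from complex II to complex V, and the groups overlapped in every complex. Nuclear subunits outside the 40 are not in these sums. The 4 complex II transcripts summed to 619 ± 18.9 TPM in DMSO and 632 ± 9.34 TPM in S767 (SD, n = 3 each). Complex III summed to 2823 ± 54.1 and 2832 ± 38.9 TPM. For complex IV the sums were 5225 ± 136 and 5256 ± 117 TPM, and for complex V 6654 ± 164 and 6641 ± 64.1 TPM. Together the 40 transcripts held 1.57% of all TPM in DMSO. The single mitochondrially encoded transcript of complex III, MT-CYB, held 0.524%, the 3 of complex IV 3.45% and the 2 of complex V 3.73%.

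In complex II, SDHC had the lowest p. SDHC (chromosome 1, 161314257 to 161375340, GENCODE 29 on GRCh38) encodes a heme-binding membrane anchor and gave 131, 124 and 123 CPM (counts scaled to a common library size) in DMSO replicates 1 to 3 and 130.1, 129 and 133 CPM in S767 replicates 1 to 3. DMSO replicate 1 lay among the S767 libraries, so the groups overlapped. The log2 fold change was 0.057 (SE 0.038, 95% interval -0.031 to 0.14), with an edgeR p of 0.176 and an adjusted p of 1. With the block the p was 0.053 and the adjusted p 0.306. SDHB (chromosome 1, 17018722 to 17054170) carries the iron-sulfur clusters of the complex. Its level was 95.4, 91.5 and 89.0 CPM in DMSO and 95.7, 94.5 and 96.2 CPM in S767, in replicate order, and DMSO replicate 1 again lay inside the S767 range. SDHB differed by 0.054 on the log2 scale (SE 0.039), with an edgeR adjusted p of 1, and of 0.319 with the block. SDHC and SDHB passed the adjusted limit with the block without replicate 1 (0.0134 and 0.0379). The anchor SDHD and the flavoprotein SDHA had log2 fold changes of 0.050 and -0.0098. The unique counts of SDHA were 3.75% of its RSEM counts, which gave 0.039, and 0.038 with the block (adjusted p 0.406). The median of the complex was 0.052, against -0.00024 over all genes tested.

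UQCRC1, a core protein of complex III (chromosome 3, 48599002 to 48610976), was the member with the lowest p in the fit without the block, just ahead of ATP5F1D, while with the block UQCR11 and ATP5F1D had lower ones. Its libraries gave 264, 264 and 255 CPM in DMSO and 268, 282 and 271 CPM in S767. Every S767 library was above every DMSO library. Groups that did not overlap were found for 2 of the 40 members, the other being ATP5PO, at 18.8, 18.6 and 18.6 CPM against 18.9, 19.2 and 19.2 CPM, and for 9.21% of all genes. UQCRC1 had a log2 fold change of 0.069 (SE 0.038, 95% interval -0.017 to 0.16), with an edgeR p of 0.103 and an adjusted p of 1. With the block the interval narrowed to 0.016 to 0.12, the p was 0.0145 and the adjusted p 0.162. UQCRC1 passed the adjusted limit of edgeR with the block and length correction (0.0459) and with the block without replicate 1 (0.0047).

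UQCRFS1, which carries the Rieske cluster (chromosome 19, 29205321 to 29213541), was at 124, 122 and 122 CPM in DMSO and 117, 122 and 121 CPM in S767. Only S767 replicate 1 lay clearly apart from the rest. The log2 fold change was -0.033 (SE 0.035, edgeR adjusted p 1, and 0.559 with the block). On the TPM scale UQCRFS1 was at 60.2, 58.7 and 59.6 in DMSO and 57.4, 57.4 and 57.5 in S767, without overlap. CYC1, cytochrome c1 (chromosome 8, 144095027 to 144097525), gave 329, 342 and 329 CPM in DMSO and 311, 354 and 341 CPM in S767, so the S767 libraries lay on both sides of the controls. Its log2 fold change was 0.0070 (SE 0.051, edgeR adjusted p 1, and 0.954 with the block), and the sign turned under several alternatives. The core protein UQCRC2 and the supernumerary subunits UQCRB, UQCRQ, UQCRH and UQCR10 had log2 fold changes of -0.046 to 0.042. The median of complex III was 0.0070.

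UQCR11, of which the promoter is shown above, was looked at after its values were seen because it had the lowest log2 fold change of the 40. The unique counts gave 22.7, 19.2 and 21.4 CPM in DMSO and 20.7, 18.2 and 20.2 CPM in S767. Within each replicate number the S767 library was the lower, while the groups overlapped. The log2 fold change was -0.099 (SE 0.077, edgeR adjusted p 1), and with the block -0.098 (SE 0.032, p 0.00965, adjusted p 0.131). With 1 library left out it was between -0.16 and -0.043. The unique counts were 15.3% of what RSEM assigned to the gene, and with RSEM counts and the block the log2 fold change was -0.0056 (adjusted p 0.957).

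Cytochrome c, the carrier between complexes III and IV and a trigger of apoptosis once released, is encoded by CYCS (chromosome 7, 25120091 to 25125361). CYCS was at 417, 396 and 400.0 CPM in DMSO and 401, 393 and 409 CPM in S767. The groups overlapped widely. The log2 fold change was -0.011 (SE 0.038, 95% interval -0.098 to 0.077, edgeR adjusted p 1, and 0.882 with the block).

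Complex IV had its lowest p at COX7B (chromosome X, 77899438 to 77907373), a small membrane subunit. COX7B gave 92.6, 87.5 and 83.8 CPM in DMSO and 90.7, 92.4 and 92.3 CPM in S767. DMSO replicate 1 was the highest of the 6, and the other two DMSO libraries were below all of S767. The log2 fold change was 0.062 (SE 0.044, edgeR p 0.196, adjusted p 1, and 0.325 with the block). With 1 library left out it was between 0.028 and 0.10. In the blocked fits it was 0.022 without replicate 3 and 0.11 (edgeR adjusted p 0.00231) without replicate 1. COX7A2, the ubiquitous form of subunit 7a, had the highest log2 fold change of the 40, 0.080 (SE 0.060), and S767 replicate 3 stood above the rest at 109 CPM, against 91.3 to 96.9 CPM in the other libraries. Its value rests on that replicate, being -0.015 in the blocked fit without replicate 3 and 0.14 (adjusted p 0.000806) without replicate 1. The remaining 9 subunits, COX4I1, COX5A, COX5B, COX6A1, COX6B1, COX6C, COX7C, COX8A and NDUFA4, had log2 fold changes of -0.018 to 0.045. The median of the 11 was 0.027.

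In complex V, ATP5F1D had the lowest p. ATP5F1D, the delta subunit of the F1 central stalk (chromosome 19, 1241746 to 1244826), gave 177, 174 and 162 CPM in DMSO and 157, 168 and 158 CPM in S767. The S767 libraries lay below the DMSO libraries except that S767 replicate 2 exceeded DMSO replicate 3. On the TPM scale the values were 418, 398 and 390.0 in DMSO and 372, 386 and 369 in S767, with no overlap. Groups did not overlap in TPM for 3 of the 40 members, ATP5F1D, UQCRC1 and UQCRFS1, and for 7.86% of all genes. The log2 fold change was -0.086 (SE 0.047, 95% interval -0.19 to 0.022, edgeR p 0.105, adjusted p 1). With the block it was -0.086 (SE 0.028, 95% interval -0.15 to -0.025, p 0.00983, adjusted p 0.132). ATP5F1D passed the adjusted limit of edgeR with the block and length correction (0.0127) and with the block without replicate 3 (0.0299).

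ATP5F1B, which holds the catalytic sites (chromosome 12, 56638175 to 56646068), was at 1159, 1153 and 1156 CPM in DMSO and 1124, 1184 and 1184 CPM in S767. The S767 libraries again lay on both sides of the controls. Its log2 fold change was 0.0094 (SE 0.039, 95% interval -0.080 to 0.098, edgeR adjusted p 1, and 0.909 with the block). The other F1 subunits ATP5F1A (alpha), ATP5F1C (gamma) and ATP5F1E (epsilon) had log2 fold changes of -0.0044, 0.042 and 0.035. The stalk subunits ATP5PB, ATP5PD, ATP5PF and ATP5PO ranged from -0.010 to 0.041. In the Fo part, ATP5MC1, ATP5MC2 and ATP5MC3 encode the same mature c subunit of the rotor ring and had log2 fold changes of -0.026, 0.039 and 0.0078, and ATP5ME, ATP5MF and ATP5MG (subunits e, f and g) 0.027, -0.040 and 0.011. The median of the 15 was 0.0094.

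With the replicate block, 3.23% of all genes passed an adjusted p of 0.05 and 0 of the 40 members did. At an unadjusted p under 0.05 with the block there were 3 members, UQCRC1, UQCR11 and ATP5F1D, against 16.8% of all genes. All 40 intervals of the blocked fit lay within 0.2 of 0 on the log2 scale, and their outermost bounds were -0.17 for UQCR11 and 0.17 for COX7A2. A fall of more than 10.97% or a rise of more than 12.6% was thus outside the 95% interval of every member in that fit. Without the block the outermost bounds were -0.28 and 0.22. For 35 of the 40 members the log2 fold change was smaller in size than the range among the 3 DMSO libraries, as it was for 87.2% of all genes.

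**Figure D2:**
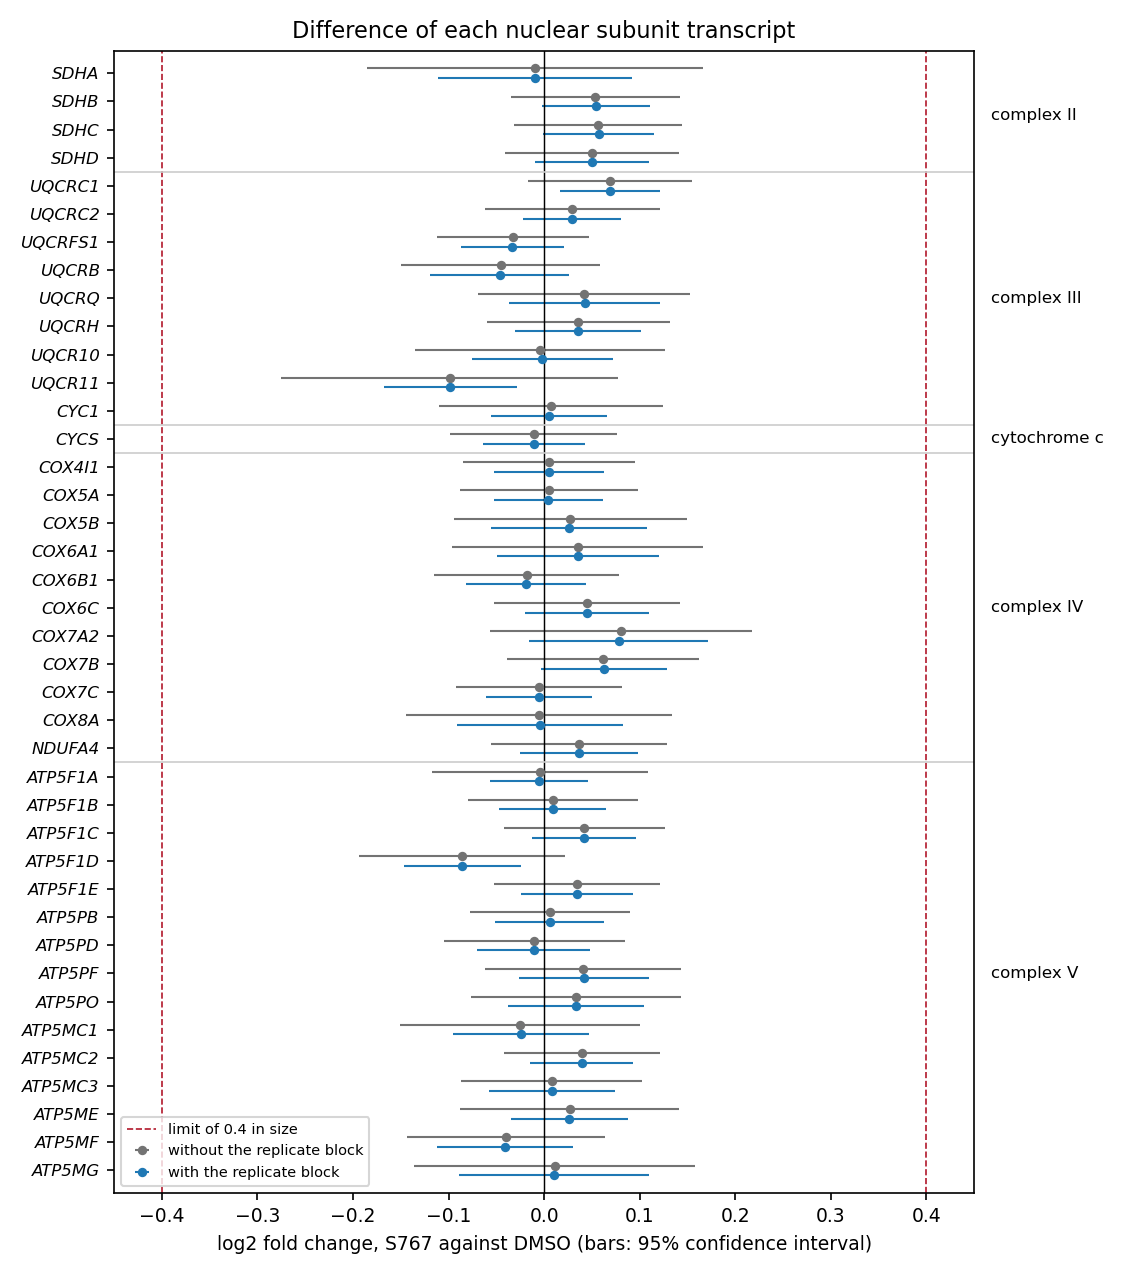
Log2 fold change of each of the 40 transcripts, S767 against DMSO, with its 95% confidence interval from edgeR without the replicate block (grey) and with it (blue), and red dashed lines at 0.4 in size. Every estimate lies between -0.10 and 0.08, no interval reaches the dashed lines, and with the block the intervals of UQCRC1, UQCR11 and ATP5F1D leave out 0.

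The members shifted together from pair to pair. In replicate 1, the S767 library was below its DMSO library for 36 of the 40 members, with a median difference in log2 CPM of -0.052. In replicate 2 it was above for 31, with a median of 0.031, and in replicate 3 for 35, with a median of 0.073. Of all genes tested, 47.9%, 50.4% and 50.3% lay on those sides, with medians of 0.0056, 0.0010 and 0.0011. Replicate 1 gave the lowest of the 3 differences for 39 of the 40 members, SDHA being the exception, and for 34.2% of all genes. By complex the medians of replicates 1, 2 and 3 were -0.079, 0.043 and 0.054 for complex III, -0.050, 0.014 and 0.12 for complex IV and -0.045, 0.033 and 0.052 for complex V. In complex II they were 0.000013, 0.050 and 0.11. A single direction in all 3 replicates was seen for 5 members, higher in SDHB, UQCRC1 and ATP5PO and lower in UQCR11 and ATP5F1D, or 12.5% of the members against 37.8% of all genes. These transcripts are short, with a median length of 811 bases against 1907 over all genes tested. With the trend of each library on transcript length removed, the 3 medians were -0.015, 0.015 and 0.022. Then 22 members were below 0 in replicate 1, 26 above 0 in replicate 2 and 29 above 0 in replicate 3. The 37 nuclear subunits of complex I had medians of -0.068, 0.045 and 0.074 in the same order.

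**Figure D3:**
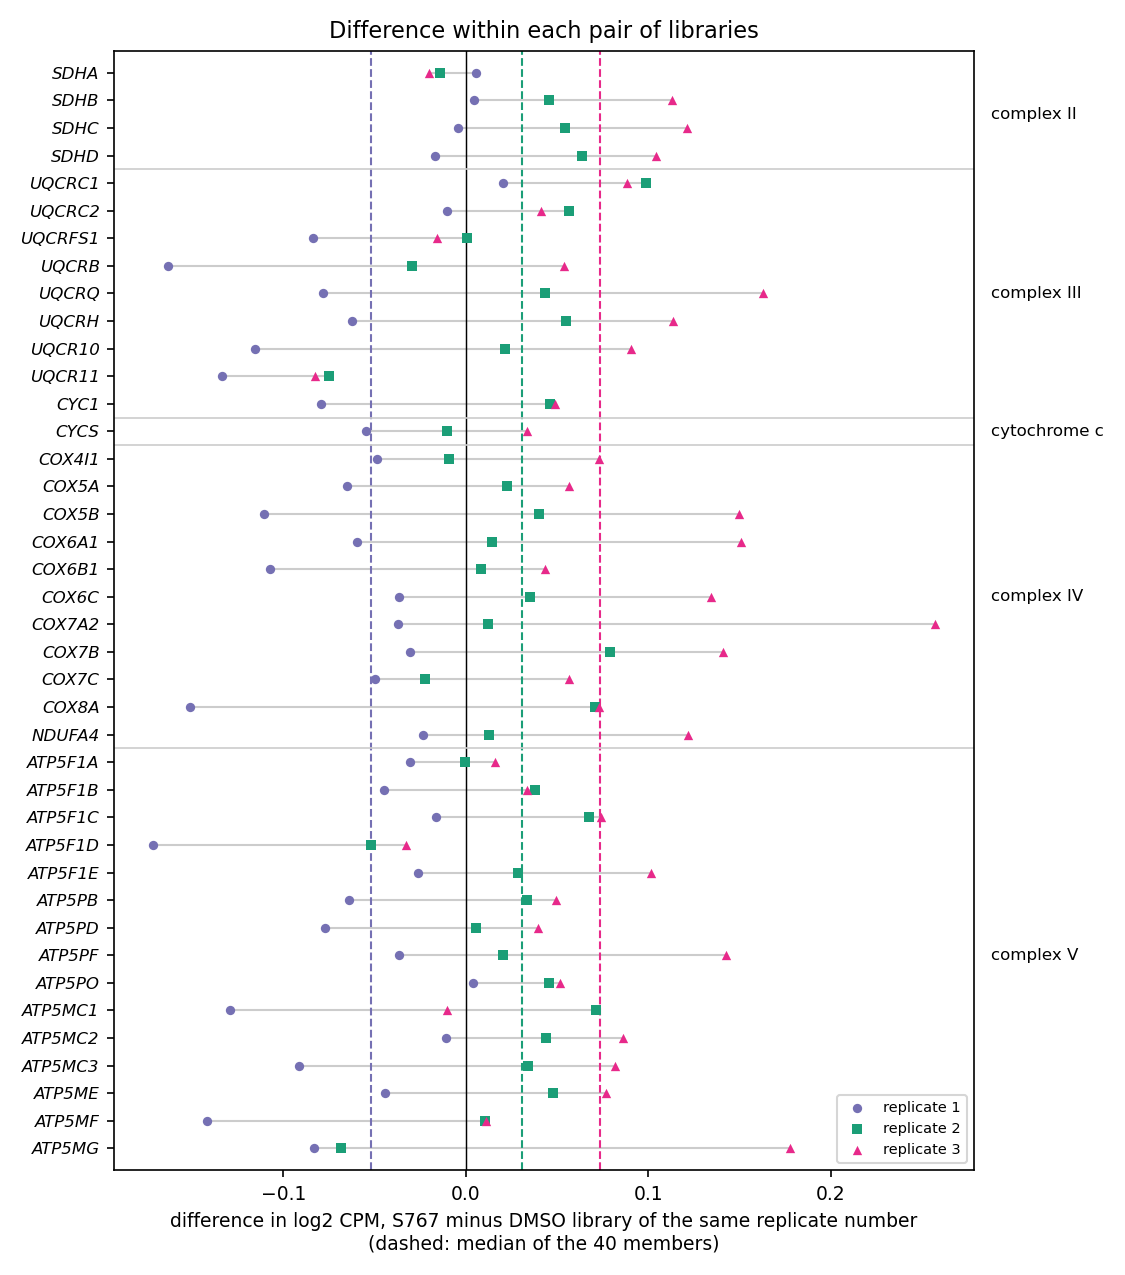
Difference in log2 CPM between the S767 and DMSO libraries of each replicate number, with 1 marker per replicate for each of the 40 members and dashed lines at the medians over the members. The medians are -0.052, 0.031 and 0.073 for replicates 1, 2 and 3, and replicate 1 is the leftmost marker for 39 members.

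The counts of members called turned on replicate 1. In the blocked fit of replicates 2 and 3 alone, 12 of the 40 members rose past an adjusted p of 0.05 (edgeR), or 30.0% of them, against 9.86% of all genes, and no member fell. They were SDHB, SDHC and SDHD of complex II, UQCRC1, UQCRQ and UQCRH of complex III, COX5B, COX6C, COX7A2 and COX7B of complex IV, and ATP5F1C and ATP5PF of complex V. Their log2 fold changes in that fit were 0.070 to 0.14. In replicate 1 the same 12 had differences of -0.11 to 0.020, and 10 of them were below 0. Without replicate 2 the blocked fit called 0 members and 0.113% of all genes, and without replicate 3 it called ATP5F1D, which fell by 0.11 (adjusted p 0.0299), and 3.06% of all genes. Removal of the length trend together with the block called 6.42% of all genes and 2 members. These were UQCRC1, which rose by 0.064 (adjusted p 0.0459), and ATP5F1D, which fell by 0.090 (adjusted p 0.0127).

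The mitochondrially encoded partners of these subunits were fitted alongside them. Of 6 transcripts 0 passed without the block, and with it 3 rose past an adjusted p of 0.05 by edgeR, where 0.00483% and 3.23% of all genes passed. MT-CYB, the catalytic cytochrome b of complex III, was at 3321, 4195 and 3554 CPM in DMSO and 3864, 4532 and 3917 CPM in S767. The spread between replicates was wider than the difference, but within each replicate S767 was the higher. Its blocked log2 fold change was 0.16 (SE 0.028, edgeR adjusted p 0.0120). MT-ATP6 and MT-ATP8, subunits of the Fo part, were likewise higher in 3 of 3 replicates, at 0.14 (SE 0.028, adjusted p 0.0199) and 0.099 (SE 0.024, adjusted p 0.0412). MT-CO1, MT-CO2 and MT-CO3, the catalytic core of complex IV, were at 0.063, 0.066 and -0.030 and did not pass. MT-CO2 turned on single replicates, at 0.16 (adjusted p 7.32e-05) without replicate 1, where 4 of the 6 rose against 9.86% of all genes, and at -0.036 without replicate 2. The difference between nuclear and mitochondrial transcripts was not tested. Without replicate 2 the log2 fold change of MT-CYB was 0.18, and 0.113% of all genes passed. The edgeR adjusted p was then 0.284 for MT-CYB, 0.357 for MT-ATP6 and 0.420 for MT-ATP8. Without replicate 3, the edgeR adjusted p was 0.103 for MT-ATP6 and 0.235 for MT-ATP8. With RSEM counts and the block these adjusted p-values were 0.0645 and 0.0584. For MT-ATP8 the adjusted p was 0.0507 with the block and library size alone. The adjusted p of MT-CYB stayed under the limit in all 3 fits (0.00186, 0.0201 and 0.0171). Reads of MT-ATP6 and MT-ATP8 cannot be fully told apart, since the genes overlap on a shared transcript.

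**Figure D4:**
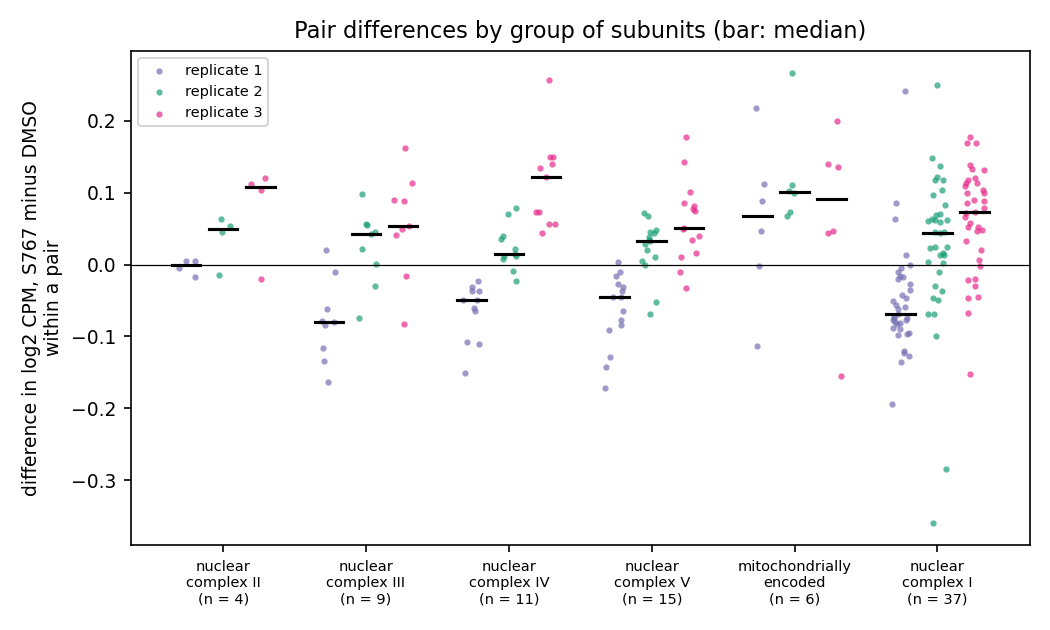
Difference in log2 CPM within each replicate number, with 1 point per gene and a bar at the median, for the nuclear subunits of complexes II, III, IV and V, the 6 mitochondrially encoded subunits of complexes III to V and the 37 nuclear subunits of complex I. In replicate 1 the medians are -0.079, -0.050 and -0.045 for complexes III, IV and V, -0.068 for complex I and 0.068 for the mitochondrially encoded subunits.

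Genes that build and regulate the complexes were also fitted, and their differences were not tested against those of the members. Log2 fold changes of the assembly factors ran from -0.11 to 0.14. Of 38 assembly factors 0 passed the adjusted limit in either fit, with a median log2 fold change of 0.0040, and 6 had an unadjusted p under 0.05 with the block, 3 in each direction, against 16.8% of all genes. In the blocked fit without replicate 1, SDHAF4, UQCC2 and UQCC3 rose past the adjusted limit, or 3 of 38 against 9.86% of all genes, and with the block and length correction COX20 fell past it, or 1 of 38 against 6.42%. The 7 accessory subunits and inhibitor, among them ATP5IF1, the inhibitor of ATP hydrolysis by complex V, had a median of -0.025, and none had an unadjusted p under 0.05. Of 8 isoforms and related copies of subunits, some of them known from particular tissues, 6 were too low to test. Among these 6 were the lung form COX4I2 and the muscle forms COX6A2 and COX7A1, each listed at 0 TPM in every library. All 8 regulators of mitochondrial biogenesis that could be tested had a log2 fold change below 0, as had 10394 of all 20725 genes. However, YY1 was above 0 on the TPM scale, and ESRRA or TFAM was with certain single libraries left out. The median of the 8 was -0.038, and none passed the adjusted limit. An unadjusted p under 0.05 by edgeR was found for 1 without the block and 3 with it, against 3.53% and 16.8% of all genes. Of the 8, NRF1, the factor whose letters were sought above, gave 33.3, 33.0 and 32.4 CPM in DMSO and 30.9, 31.1 and 30.1 CPM in S767. Each S767 library was below each DMSO library. NRF1 had a log2 fold change of -0.10 (SE 0.042), with an edgeR p of 0.0417, an adjusted p of 1 and an adjusted p of 0.0725 with the block. NRF1 and PPRC1, a coactivator, fell past the adjusted limit with the block and length correction, or 2 of 8 tested against 6.42% of all genes, as did PPRC1 and PPARGC1B in the blocked fit without replicate 1, or 2 of 9 against 9.86%. In complex I, NDUFA12, an accessory subunit, was the only one of 37 with an unadjusted p under 0.05 without the block, against 3.53% of all genes. Its log2 fold change was 0.11 (SE 0.048, edgeR p 0.0497, adjusted p 1, and 0.0777 with the block). With the block 4 of the 37 had an unadjusted p under 0.05, 2 in each direction, against 16.8% of all genes. Without replicate 1 the blocked fit called 8 of the 37, all higher, against 9.86% of all genes, and with the length correction it called NDUFA12 alone, against 6.42%.

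How the fragments were counted bears on some members more than on others. The counts tested hold only fragments that map to 1 place and overlap 1 gene, whereas RSEM divides shared fragments. For 7 members the unique counts were under 50% of the RSEM counts. SDHA was lowest, as given above. The share was 12.9% for ATP5PO, 13.9% for ATP5MG, 15.3% for UQCR11, 15.8% for COX6A1, 25.8% for COX8A and 33.65% for ATP5MF. In GENCODE 29 exons of another gene on the same strand overlap 6 of these 7, SDHA being the exception, and 4 of the other 33. The counts were made on another release, since 9 of the 40 members have the same identifier version in GENCODE 29. Of the 60609 genes counted, 58502 are in it, and overlaps with the rest could not be seen. SDHD was at 58.6% and SDHC at 82.2%, and the remaining 31 at 90.8% to 117%. Fold changes of the 7 from unique counts therefore rest on part of their fragments. When strand is ignored, 7 other members lost over 10% of their counts, and ATP5ME and UQCR10 kept 13.5% and 24.9%.

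**Figure D5:**
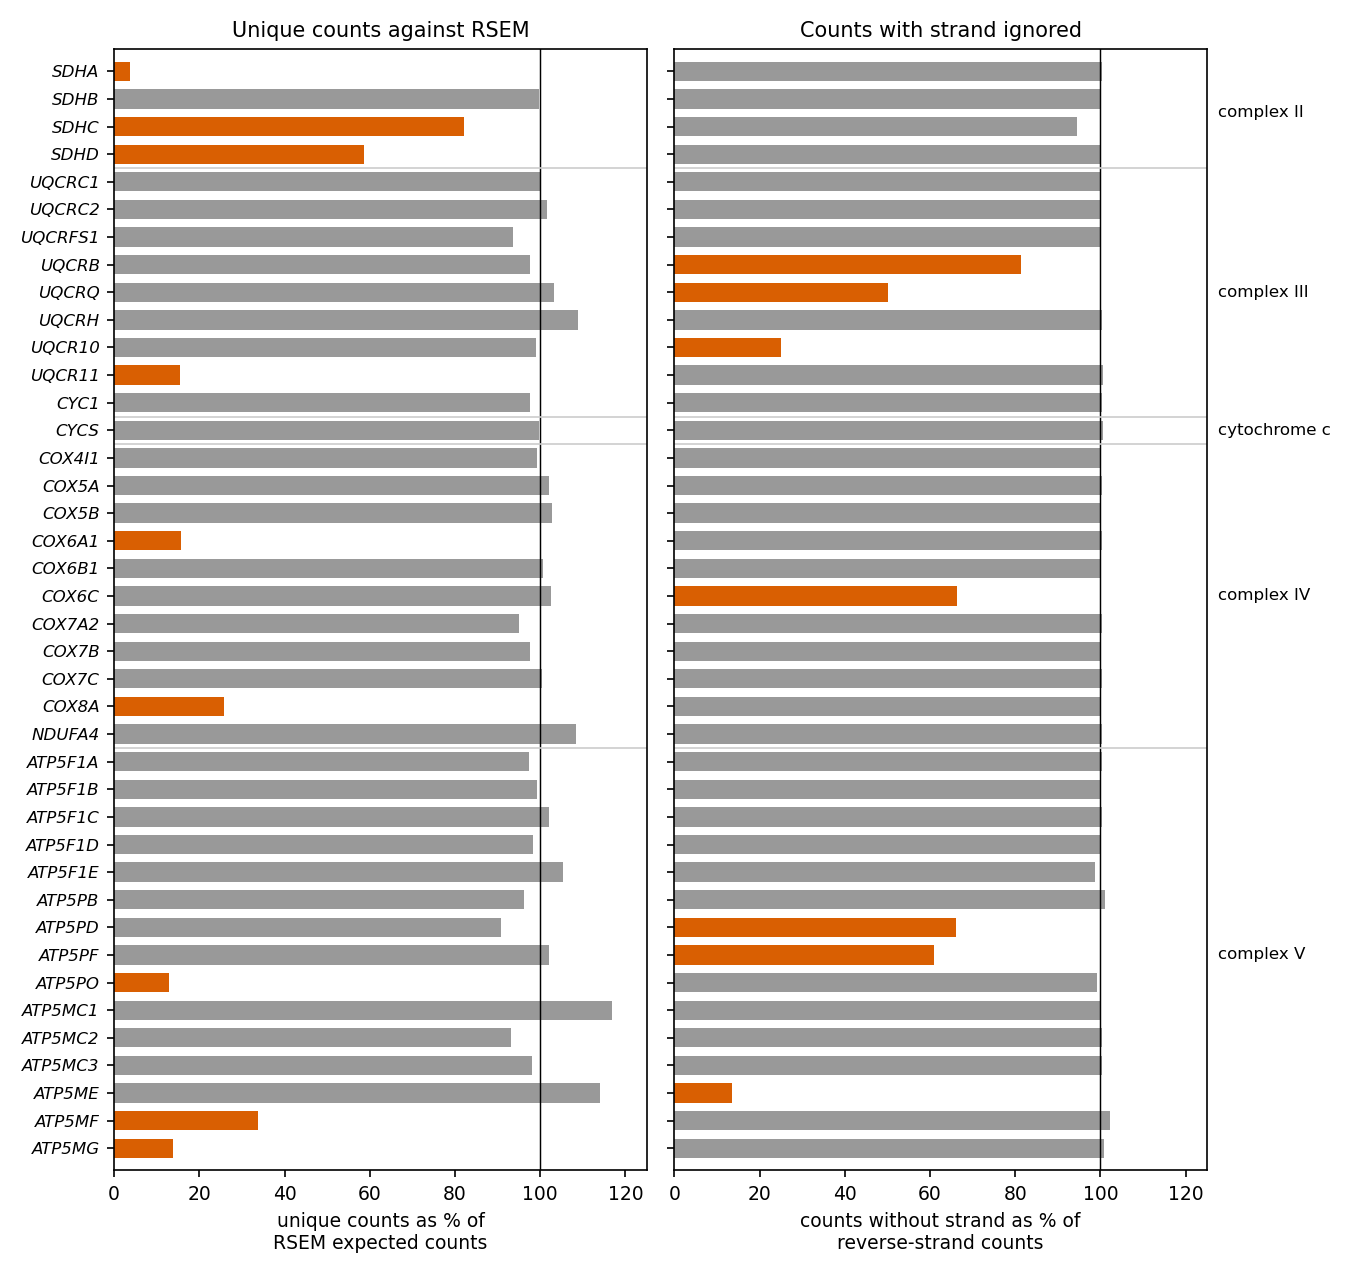
Unique counts as a percentage of RSEM expected counts (left) and counts without regard to strand as a percentage of reverse-strand counts (right), summed over the 6 libraries, for each of the 40 members, with bars under 90% in orange. SDHA is lowest on the left at 3.75% and ATP5ME on the right at 13.5%.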

How the data were processed

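Poly(A) RNA of OCI-AML5 cells was sequenced from stranded libraries, 3 per treatment. Per the submitters' processing notes, reads were aligned with STAR 2.7.1a to GRCh38 and quantified with RSEM 1.2.28. The authors deposited raw counts per gene for each strand, RSEM expected counts, and TPM values scaled to the same total in every library. Summary lines that name no gene (20.28% of fragments) were left out. Symbols were found for 60545 of 60609 identifiers.

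Reverse-strand counts were scaled with TMM, kept by filterByExpr (minimum count 10), and compared in R 4.3.3 with edgeR 4.0.16 and its quasi-likelihood test, with Benjamini-Hochberg adjustment over 20725 genes. The scripts were tested on simulated data. Standard errors are the log2 fold change over the square root of F, and log2 CPM used a prior count of 2. CPM are TMM-scaled. Alternatives were DESeq2 1.42.0, voom in limma 3.58.1, RLE factors, library size alone, other limits on low counts, RSEM expected counts (rounded), counts without strand, limma on log2(TPM + 1) and log2(TPM + 0.1), the replicate block alone or with a length correction (lowess span 0.3), and leaving out each library or pair. No alternative was added later.

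Replicate numbers pair the libraries. Deviations from group means over 6191 genes correlated at 0.78, 0.87 and 0.75 between same-numbered libraries and were negative otherwise, and the source of the pairing is not given. No library repeated another (chi-square per gene 14.0 or more). Members and gene lists were chosen with earlier results of these data known. Values per library and statistics are given for members with an unadjusted p under 0.05 or a blocked adjusted p under 0.05 (there were 0), the member with the lowest p of each complex, SDHB, UQCRFS1, CYC1, CYCS and ATP5F1B. From the other lists, up to 4 genes past those limits are named. Planned motif searches in protein sequences were not run here.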

Additional observations from a re-analysis of the deposited data

How the results depend on the processing

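The count of 0 members past an adjusted p of 0.05 was also 0 under each alternative except 3. It was 2 with the replicate block and length correction (6.42% of all genes passed). With the block it was 12 without replicate 1 (9.86% of all genes) and 1 without replicate 3 (3.06%). The count of 0 at an unadjusted p under 0.05 was 3 with the replicate block, against 16.8% of all genes. With the block and library size alone it was 3 (16.7% of all genes). The block gave 2 with RSEM counts (17.6%) and 9 with the length correction (19.7%). It was 23, 2 and 3 with the block without replicates 1, 2 and 3 (21.1%, 8.94% and 13.4% of all genes), and 3 with limma on log2(TPM + 1) and on log2(TPM + 0.1) (5.12% and 5.20%). With a single library left out it was 0 to 1, against 2.53% to 4.91% of all genes.

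The medians of log2 fold changes moved under the alternatives, and some changed sign. The median of the 40 members was 0.057 with the block without replicate 1, -0.018 without replicate 3, and -0.0046 to 0.042 with 1 library left out. In the same 2 blocked fits complex III was at 0.048 and -0.021, complex IV at 0.071 and -0.026, and complex V at 0.048 and -0.017, whereas complex II was above 0 in both (0.082 and 0.022).

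Single members changed sign too, 17 of 40 with the block without replicate 3, 10 without replicate 1, 6 without replicate 2, 13 with either TPM setting, 5 with RSEM counts and 5 to 11 with 1 library left out. Among those beyond 0.04 in size these were UQCRQ, COX6C, COX7A2 and ATP5PF without replicate 3, UQCRB without replicate 1, and ATP5PF with RSEM counts, with TPM and without DMSO replicate 3. CYC1 was at -0.0073 with both TPM settings, at -0.017 and -0.019 with the block without replicates 2 and 3, and between -0.033 and 0.058 with 1 library left out. CYCS was at 0.011 with the block without replicate 1, and between -0.026 and 0.013 with 1 library left out. ATP5F1B was at -0.011 with both TPM settings and at -0.0077 and -0.0051 with the block without replicates 2 and 3, and between -0.0034 and 0.035 with 1 library left out. Without a change of sign, SDHB was between 0.030 and 0.0815 and UQCRFS1 between -0.045 and -0.015 with 1 library left out. The block with all libraries changed no call among the members at the adjusted limit. Causes of these changes were not tested. The fits of 2 replicates have 1 residual degree of freedom per gene and lean on the spread pooled over genes.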

Other observations

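In the 37 nuclear subunits of complex I, unique counts were under 50% of RSEM counts for 7, and the share was 0.741% for NDUFA13, 1.40% for NDUFV2, 3.85% for NDUFA7 and 4.43% for NDUFB8. RSEM placed NDUFA13 at 739 TPM in DMSO. These genes were picked after their values were seen.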
